A study of Mus musculus with 9 samples.

Results

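The genes described here encode the proteins of the cytosolic ribosome, the particle that translates messenger RNA. They were chosen by name. A member is a protein-coding gene whose GENCODE M21 symbol is Rpl or Rps followed by a number, with or without a closing letter or copy number, or is a stalk protein gene (*Rplp0*, *Rplp1* or *Rplp2*) or *Rpsa*. This rule found 83 of the 55450 genes counted, 51 for the large (60S) subunit and 32 for the small (40S) subunit. They were spread over 19 chromosomes, with 14 on chromosome 7, the chromosome with the most. Functioning ribosomes are built from these proteins, some of which stand in for others, so most of their messenger RNAs are abundant in growing cells. Many of them begin with a run of pyrimidines through which their translation is switched with growth signals.

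RNA was sequenced from mouse pituitary tissue at 2 stages. The 7 embryonic libraries came from the Rathke's pouch, the rudiment of the anterior pituitary, of single embryos at embryonic day 13.5, heterozygous for *Sox2*Egfp (Sox2Egfp/+) and of strain 129Sv/c57BL6J. The 2 adult libraries came from the anterior pituitary of single mice at postnatal week 8, labelled with the same strain, after the posterior lobe was taken off. The labels give no genotype for the adults and no batch or sex for any library, so batch cannot be told apart from stage. Per the study's methods, both groups held males and females.

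The read pairs counted on genes numbered 16738863, 28537311, 24816013, 18825731, 24687556, 22393725 and 25755469 in embryos 1 to 7, and 36421545 and 31191117 in adults 1 and 2. Levels below are counts scaled to library size by TMM (CPM), and compare a gene with itself across libraries. Fold changes are embryo over adult, and each p-value rests on an adult group of 2 animals. Read pairs copied during amplification were not told apart from separate molecules, so intervals and detection floors cover counting error only. In whole tissue, fewer cells of a type and less RNA per cell cannot be told apart.

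Markers of both tissues were read first, by level alone. *Hesx1*, a transcription factor of the pouch, lay at 11.0 to 40.3 CPM (median 22.4) in the embryos against 0.339 and 0.562 in the adults. *Lhx3* and *Pitx1*, which continue in the adult gland, lay at 107 to 294 CPM (median 233) in the embryos against 115 and 108 in the adults, and at 240.3 to 540.3 CPM (median 456) in the embryos against 134 and 109 in the adults. *Sox2*, the progenitor factor whose allele is altered in the embryos, gave 26.5 to 44.8 CPM (median 39.4) in the embryos against 64.0 and 56.8 in the adults. Every embryo was above both adults for *Hesx1* and *Pitx1*, the groups overlapped for *Lhx3*, and every embryo was below both adults for *Sox2*. The 7 hormone cell markers summed to 869.7 to 1919 CPM in the embryos (median 1275), against 152399 and 159972 in the adults, where *Prl* led in adult 1 and *Gh* in adult 2, while *Cga* led in the embryos. The hormone genes *Gh* and *Prl* stayed under 2 CPM in every embryo, far below both adults. Of the 7 hormone cell markers, *Tshb* alone overlapped, at 76.4 to 432 CPM in the embryos against 229 and 440 in the adults. *Hesx1*, *Pitx1* and the hormone cell markers other than *Tshb* thus separated the libraries by their labels. *Lhx3* did not, and *Sox2* was higher in the adults.

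Markers of other kinds of cells were also summed, and the sums were not tested. The erythroid and mesenchyme sums were higher in every embryo than in both adults. The endothelial, macrophage and neural sums overlapped between the stages. The 10 erythroid markers summed to 180463, 20050.3, 19859, 225533, 16521, 19695 and 6446 CPM in embryos 1 to 7, and to 764 and 1981 in the adults. Embryos 1 and 4 stood apart as globin-rich libraries. The embryonic globin *Hbb-y* was the most abundant of the list in the embryos, and *Hba-x* and *Hbb-bh1*, also embryonic globins, were at or under 3 counts in both adults. The 5 mesenchyme markers summed to 578 to 2140 CPM in the embryos (median 1475), against 547 and 336 in the adults, led by *Col3a1* in the embryos. The 4 endothelial markers summed to 84.3 to 322 CPM in the embryos (median 132), against 99.3 and 59.5 in the adults, led by *Cdh5* in the embryos. For the 4 macrophage markers, led by *C1qb* in the embryos, the sums were 93.8 to 243 CPM (median 115) and 80.0 and 122. The 7 neural and posterior lobe markers summed to 107 to 438 CPM (median 126) and to 108 and 77.7, led by *Tubb3*. Within this list *Rax* and *Nkx2-1*, transcription factors of the hypothalamus and posterior lobe, lay at 29.2 to 92.7 CPM (median 48.4) in the embryos against 1.48 and 2.11 in the adults, and at 13.0 to 41.6 CPM (median 21.6) in the embryos against 1.09 and 1.71 in the adults. Every embryo was above both adults for these 2 genes, while the posterior lobe hormones *Avp*, with no count in any embryo and 1.74 and 3.43 CPM in the adults, and *Oxt*, at 0 to 0.198 CPM against 1.57 and 1.69, went the other way. The parts that these cells played in the ribosomal protein values were not tested.

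Ribosomal protein genes took a far larger share of the counted read pairs in the embryonic pouch than in the adult gland. The share was 17.6%, 13.8%, 13.9%, 18.0%, 13.5%, 20.3% and 11.6% in embryos 1 to 7, and 3.23% and 2.66% in adults 1 and 2. Every embryo was above both adults, and embryos 1, 4 and 6 were higher than the other embryos. The mean was 15.5% ± 3.13 (SD, n = 7) against 2.95% ± 0.410 (SD, n = 2). The widest Wilson 95% interval of a single library was 0.0365 points, far narrower than the spread between embryos. The 60S genes took 8.15% ± 1.54 (SD, n = 7) and 1.63% ± 0.256 (SD, n = 2), and the 40S genes 7.39% ± 1.59 and 1.31% ± 0.154. Without the 3 most abundant members, *Rps14*, *Rps3* and *Rpl7*, named for their totals after these were seen, the means were 14.0% and 2.67%.

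The same libraries differed in other measures. Embryos 1 and 4 had 14.7% and 17.0% of their counted read pairs on the erythroid markers, where the remaining embryos had 0.780% to 2.08% and the adults 0.0866% and 0.226%. Embryo 6, with the highest ribosomal share, had 1.78%. Read pairs aligned to several places, which are not counted, made up 21.7%, 26.1% and 19.7% in embryos 1, 4 and 6, 14.1% to 15.5% in the remaining 4, and 7.16% and 7.52% in adults 1 and 2. The share of all read pairs that was counted on a gene was 59.7% and 62.8% in embryos 1 and 4, 73.9% in embryo 6, 77.4% to 80.0% in the remaining embryos, and 84.0% and 83.7% in adults 1 and 2. Taken over all read pairs, the ribosomal share was 11.2% ± 1.79 (SD, n = 7) and 2.47% ± 0.350 (SD, n = 2). With the erythroid read pairs taken out of the total it was 16.7% ± 4.16 and 2.95% ± 0.407. Without embryos 1 and 4 the embryo mean was 14.6%. What part these measures had in the difference between stages was not tested.

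**Figure D1:**
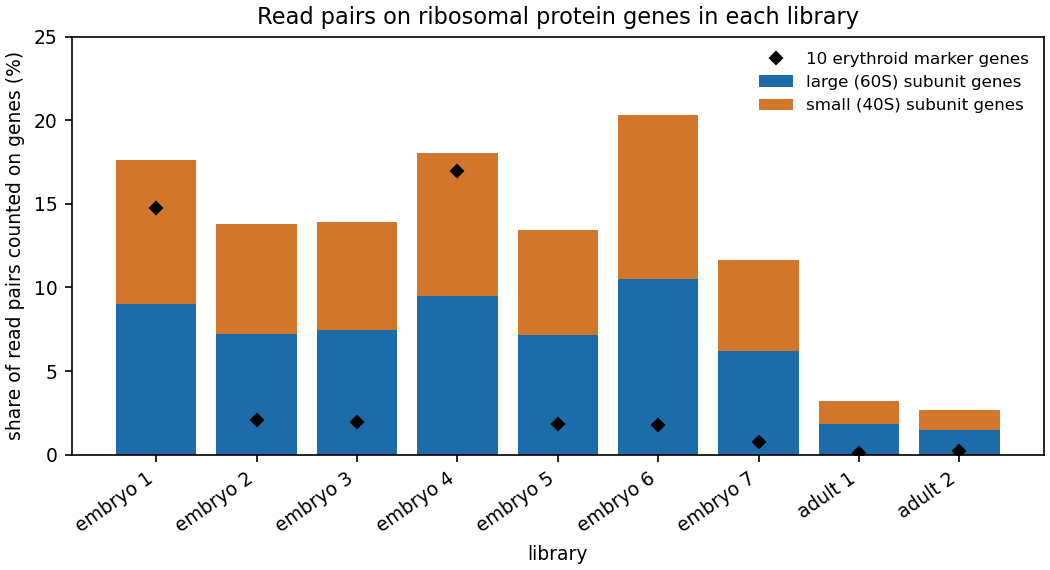
Share of read pairs counted on genes (%, vertical axis) in each of the 9 libraries (horizontal axis). Stacked bars give the 60S and 40S ribosomal protein genes and diamonds the 10 erythroid markers. The embryos reach 11.6% to 20.3% and the adults 3.23% and 2.66%, and the diamonds are high in embryos 1 and 4 alone.

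Of the 83 members, 81 had a mean count of at least 5 and were tested, and 79 of these were higher in the embryo at an edgeR adjusted p below 0.05. Over all 19371 genes tested, 24.0% were called higher. No member was lower (27.4% of all genes were). The Wald test of DESeq2 also called 79 members higher and 0 lower. In 79 members every embryo lay above both adults, which held for 26.2% of all genes. The median log2 fold change of the members was 2.75, against -0.04 over all genes and -0.14 over the other protein-coding genes. A fold change above 4 with an adjusted p below 0.05 was reached by 74 members, and by 11.3% of all genes. When the fold change itself was tested against 4, 23 members passed, and 3.16% of all genes. Without embryos 1 and 4, 79 members were higher, 71 past 4-fold, with a median of 2.56.

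The embryos differed among themselves in a shared way. Among the 81 tested members, embryo 4 was the highest embryo for 30, embryo 6 for 30, embryo 1 for 19 and embryo 2 for 2. Embryo 7 was the lowest embryo for 69. The median over the members of the log2 deviation from each gene's mean was 1.04, 1.18 and 1.12 in embryos 1, 4 and 6, between 0.23 and 0.39 in embryos 2, 3 and 5, and -0.13 in embryo 7. It was -1.90 and -2.16 in adults 1 and 2. The same median over all tested genes stayed between -0.12 and 0.08 in the 9 libraries. Embryos 1, 4 and 6 were thus high over most members at once.

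**Figure D2:**
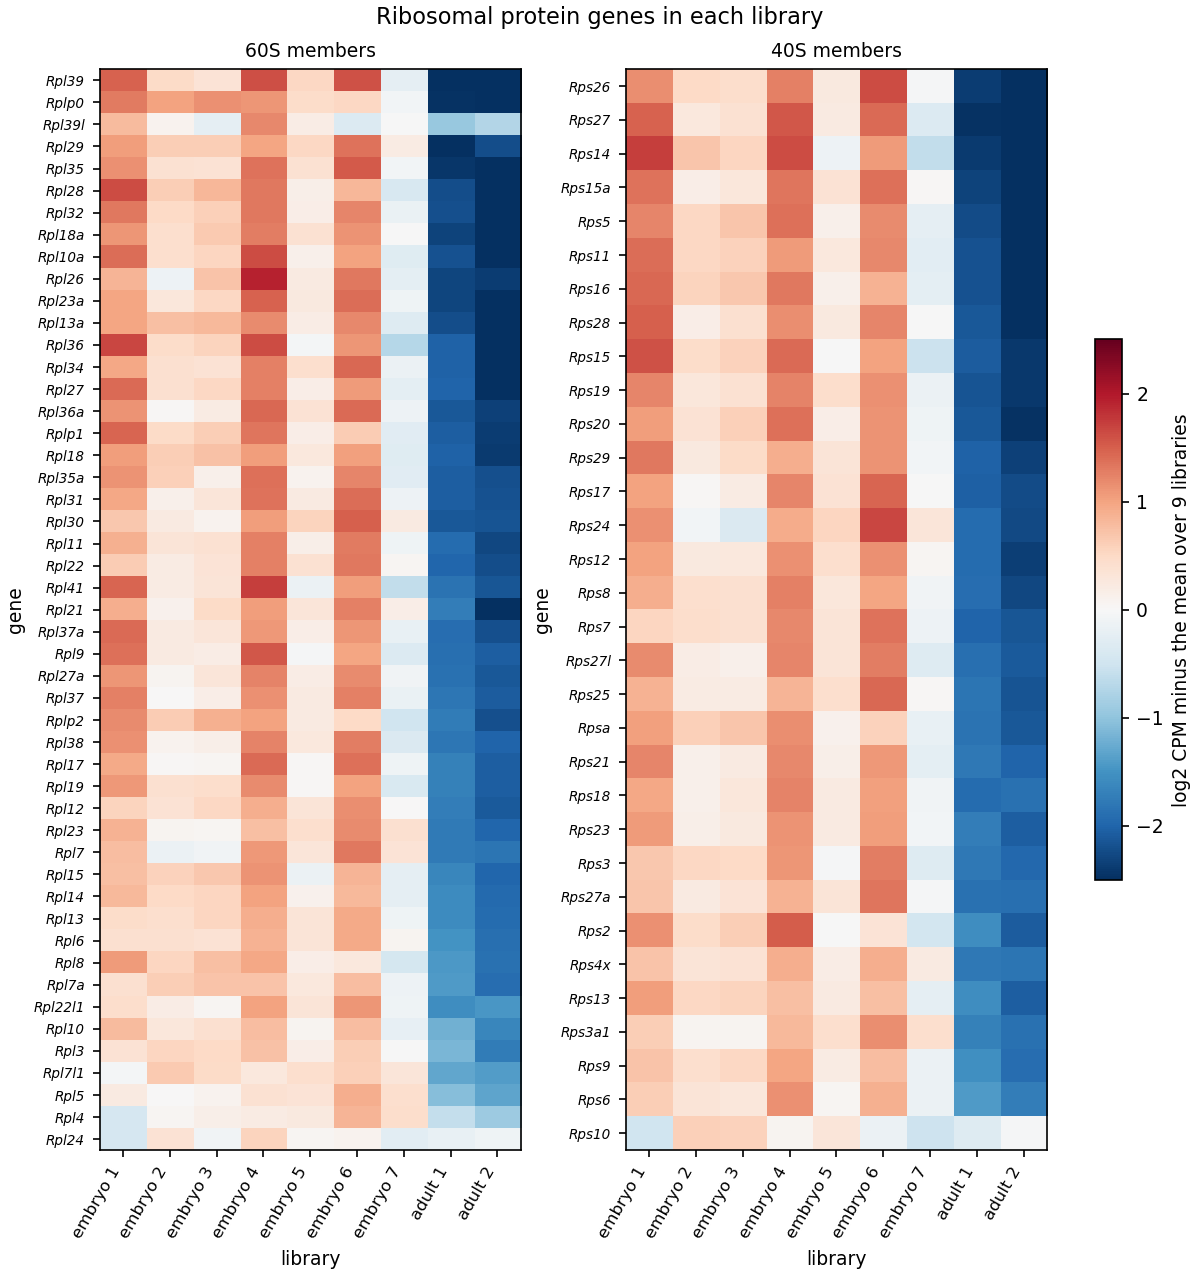
Level of each of the 81 tested members (vertical axis, ordered by fold change within each subunit) in each library (horizontal axis), as log2 CPM minus the gene's mean over the 9 libraries (colour; values beyond the colour scale take its end colours). Both adult columns are low for all members except *Rps10* and *Rpl24*, and embryos 1, 4 and 6 are the highest embryos for most.

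Most tested members of each subunit were higher in the embryo. Of all genes tested, 24.0% were. In the 60S subunit, 48 of 49 tested members were higher, with a median of 2.75. In the 40S subunit, 31 of 32 were higher, with a median of 2.74. The difference between the subunits was not tested.

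Among the 60S genes, *Rpl39*, for a short basic protein at the exit tunnel of the ribosome, had the highest fold change of all members (ENSMUSG00000079641.3, chrX:37082520-37085402, minus strand, GRCm38). Its level was 781 to 2799 CPM (median 1317) in the embryos against 146 and 101 in the adults. *Rpl29*, another small basic protein of the large subunit, lay at 425 to 943 CPM (median 564) in the embryos against 41.5 and 78.3 in the adults. Embryo 4 was highest for *Rpl39* and embryo 6 for *Rpl29*, and the groups did not overlap for either gene. *Rpl39* was 14.5-fold higher, a log2 fold change of 3.86 (SE 0.60, edgeR adjusted p = 1.4e-04), and *Rpl29* 10.7-fold higher, at 3.43 (SE 0.43, edgeR adjusted p = 2.4e-05). *Rpl10a* and *Rpl22*, both surface proteins of the subunit, lay at 806 to 3080.2 CPM (median 1445) in the embryos against 219.7 and 156 in the adults, and at 1175 to 2836 CPM (median 1477) in the embryos against 288 and 244 in the adults. Every embryo was again above both adults. Their log2 fold changes were 3.23 (SE 0.56, edgeR adjusted p = 3.3e-04) and 2.77 (SE 0.45, edgeR adjusted p = 2.2e-04). *Rpl38*, whose loss disturbs the patterning of the mouse skeleton, rose by 2.57 (SE 0.50, edgeR adjusted p = 7.9e-04) on the log2 scale from levels of 201 and 177 CPM in the adults to 552 to 1703 CPM (median 849) in the embryos.

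*Rpl5* and *Rpl11*, which bind the 5S ribosomal RNA and can restrain the p53 regulator MDM2, both rose. *Rpl5* lay at 790.0 to 1465 CPM (median 994) in the embryos against 371 and 314 in the adults, and *Rpl11* at 1280.2 to 3377 CPM (median 1801) in the embryos against 364 and 284 in the adults. Embryo 6 was the highest for both genes, and no embryo came down to the adults. The log2 fold change was 1.56 (SE 0.33, edgeR adjusted p = 0.0013) for *Rpl5* and 2.78 (SE 0.48, edgeR adjusted p = 3.2e-04) for *Rpl11*, and relative to transcript length, as described further on, 1.44 and 1.56. Further 60S genes lay toward the lower end of the list. *Rpl3*, at the peptidyl transferase centre, gave 1.85 (SE 0.35, edgeR adjusted p = 5.8e-04), *Rpl10*, which completes the subunit late in its assembly, 1.86 (SE 0.39, edgeR adjusted p = 0.0012), and *Rpl7* 2.40 (SE 0.48, edgeR adjusted p = 9.4e-04). *Rpl4*, which lines the exit tunnel, had the smallest fold change of the members past the test. It stood at 1401 to 3355 CPM (median 2154) in the embryos against 1232 and 993 in the adults, with embryo 1 the lowest embryo and still above both adults. Its log2 fold change of 1.01 (SE 0.36, edgeR adjusted p = 0.029) was no longer past the test without adult 1 (1.15, adjusted p = 0.11), without adult 2 (0.85, adjusted p = 0.23) or with scaling by library size alone (0.80).

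The 3 genes of the ribosomal stalk, the arm of the large subunit that recruits elongation factors, all rose. *Rplp0*, the base of the stalk (ENSMUSG00000067274.10, chr5:115559467-115563727, plus strand), lay at 2069 to 5369 CPM (median 4374) in the embryos against 394 and 270.4 in the adults. *Rplp1* and *Rplp2*, the acidic pair that it carries, lay at 1465 to 4904 CPM (median 2727) in the embryos against 428 and 343 in the adults, and at 497 to 1590.0 CPM (median 1082) in the embryos against 207 and 151 in the adults. Embryo 1 was the highest and embryo 7 the lowest for all 3 genes, and the groups did not overlap. *Rplp0* was 11.8-fold higher, the second highest of the members, at a log2 fold change of 3.56 (SE 0.48, edgeR adjusted p = 5.2e-05). The pair rose by 2.95 (SE 0.51, edgeR adjusted p = 3.6e-04) and 2.61 (SE 0.45, edgeR adjusted p = 3.4e-04).

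In the 40S subunit, *Rps26*, near the exit of the messenger RNA channel, had the highest fold change. It lay at 1157 to 3660.4 CPM (median 1672) in the embryos against 228 and 165 in the adults. *Rps14* and *Rps27* lay at 2498 to 12692 CPM (median 6189) in the embryos against 728 and 679 in the adults, and at 1656 to 6192 CPM (median 2749) in the embryos against 380.2 and 369 in the adults. Embryo 7 was the lowest embryo for all 3 genes, and remained above both adults. Their log2 fold changes were 3.44 (SE 0.53, edgeR adjusted p = 1.4e-04), 3.36 (SE 0.66, edgeR adjusted p = 8.6e-04) and 3.36 (SE 0.60, edgeR adjusted p = 4.3e-04). *Rps19*, the gene most often mutated in Diamond-Blackfan anaemia, lay at 786 to 2055 CPM (median 1191) in the embryos against 195 and 164 in the adults. *Rps24*, another gene of that anaemia, lay at 1542 to 6388 CPM (median 2914) in the embryos against 525 and 418 in the adults, and the X-linked *Rps4x* at 3058 to 5081 CPM (median 3456) in the embryos against 776 and 754 in the adults. No embryo overlapped the adults for these genes, and embryo 6 was highest for *Rps24* and *Rps4x*. They rose by 3.02, 2.83 and 2.36 on the log2 scale, with edgeR adjusted p-values of 1.5e-04, 9.2e-04 and 2.0e-04.

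*Rps6*, the substrate of the S6 kinases, and *Rpsa*, which was first described as a laminin receptor precursor, also rose. *Rps6* lay at 636 to 1551 CPM (median 878) in the embryos against 265 and 211 in the adults, and *Rpsa* at 2218 to 5676 CPM (median 3822) in the embryos against 699.9 and 578 in the adults. Embryo 4 was highest for both and both adults were below every embryo. *Rps6* rose by 2.08 (SE 0.40, edgeR adjusted p = 7.3e-04) and *Rpsa* by 2.62 (SE 0.44, edgeR adjusted p = 2.9e-04) on the log2 scale. *Rps15a* and *Rps20* stood at 1738 to 4401 CPM (median 2182) in the embryos against 344 and 283 in the adults, and at 1270.1 to 3514 CPM (median 2061) in the embryos against 314 and 247 in the adults, with the lowest values of both genes in embryo 7 among the embryos. The groups were separate, and the log2 fold changes were 3.25 (SE 0.53, edgeR adjusted p = 2.1e-04) and 3.02 (SE 0.48, edgeR adjusted p = 1.7e-04). *Rps27a* encodes ubiquitin fused to its ribosomal protein. It gave 1932 to 4967 CPM (median 2503) in the embryos against 543 and 533 in the adults, no overlap, and a log2 fold change of 2.47 (SE 0.43, edgeR adjusted p = 3.7e-04).

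*Rps10* and *Rpl24* were the only tested members that did not pass. *Rps10* (ENSMUSG00000052146.16, chr17:27630418-27636669, minus strand) lay at 2.85 to 6.79 CPM (median 4.58) in the embryos against 3.34 and 4.21 in the adults. *Rpl24* (ENSMUSG00000098274.7, chr16:55966275-55971435, plus strand) lay at 0.439 to 1.34 CPM (median 0.797) in the embryos against 0.606 and 0.674 in the adults. Both groups overlapped for both genes, and both genes lay far under the other named members above in all 9 libraries. The log2 fold changes were 0.33 (SE 0.45, edgeR adjusted p = 0.56) and 0.36 (SE 0.69, edgeR adjusted p = 0.68), and with unstranded counts that of *Rpl24* was -0.09. Of the exon bases of *Rps10*, 38.8% are covered on the same strand by *RPS10-NUDT3*, a gene annotated across it, and 71.5% of those of *Rpl24* by *Gm28037*. The counting rule gives a read pair on 2 genes to neither, so these levels are uncertain. Other genes also cover *Rpl13a* (54.9%), *Rpl32* (14.5%) and *Rpl19* (14.4%), the last 2 named after their values were seen. *Rpl13a* stood at 85.1 to 243 CPM (median 185) in the embryos against 22.5 and 17.4 in the adults, without overlap, and rose by 3.18 (SE 0.44, edgeR adjusted p = 6.1e-05) on the log2 scale. Among the 76 tested members with no such cover, 76 were higher in the embryo, where 24.0% of all genes were. The part of the cover in these values was not tested.

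The 2 untested members are copies with restricted use elsewhere in the body. *Rpl10l*, known from the testis, had 0 counts in every library, which allows at most 0.0727 CPM in adult 1 and 0.220 CPM in embryo 1, the lowest and the highest floor of 3 counts. *Rpl3l*, known from striated muscle, had 0 to 4 counts per library. Neither could be compared at this depth.

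Ribosomal protein transcripts are short, and short transcripts in general were higher in these embryos. The median transcript length was 771 bases for the tested members and 2699 for the other protein-coding genes. The other genes were split into 10 bins by length. In the shortest bin (1548 genes, up to 1116 bases) they had a median log2 fold change of 1.32, and 53.6% were higher in the embryo. The median fell from each bin to the next, to -1.43 in the longest, where 5.68% were higher. In the shortest bin lay 68 members, with a median of 2.77. The 599 other genes there that averaged 1000 counts or more, closer to the members in abundance, had a median of 1.75. Each member was also set beside the other genes within 20% of its own length, 36 to 3780 genes per member. Of the 81, 79 were above the median of those genes, by a median of 1.38 on the log2 scale, and *Rps10* and *Rpl24* were below it. Across genes, which are not independent replicates, Spearman's correlation of fold change with transcript length was -0.33 over the 81 members and -0.40 over the 15494 other protein-coding genes. With coding length it was -0.49 over the members.

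**Figure D3:**
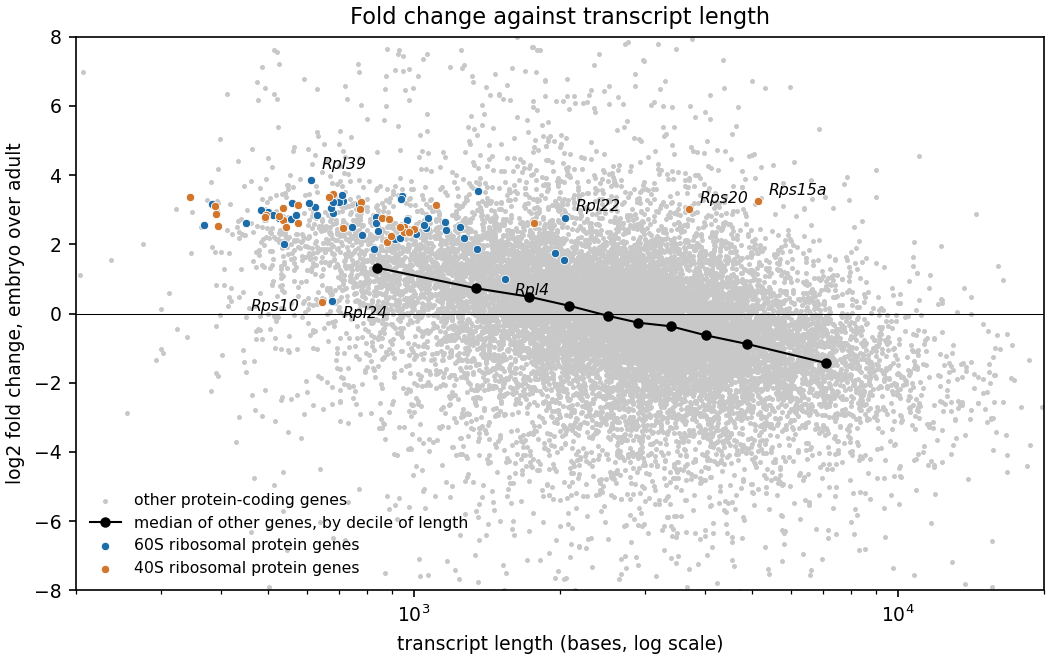
Log2 fold change, embryo over adult (vertical axis), against transcript length in bases (horizontal axis, log scale). Grey points are other protein-coding genes, coloured points the tested members, and black points the medians of the other genes in 10 bins of length; genes beyond the axes are not drawn. The black line falls from 1.32 to -1.43, and nearly all members lie above it.

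To read each member relative to other genes of its length, the fit was repeated with the trend of fold on transcript length taken out of every library. Relative to length, 76 of 81 members were higher in the embryo at an edgeR adjusted p below 0.05, against 24.2% of all genes tested. None was lower (22.7% of all genes). Without adult 2, 45 members were higher, without adult 1 69, and with any 1 embryo left out 74 to 76. Calls over all genes dropped as well, from 4679 of 19371 to 2103 of 19076 without adult 2 and 2437 of 19017 without adult 1. The median log2 fold change was 1.41, against 0.06 over all genes, and 11 members were past 4-fold (8.40% of all genes). That count depended on the measure of length, at 41 with coding length (chosen after seeing the data), 40 with merged exons and 22 with the longest transcript, and was 4 with the trend on genes of at least 1000 counts. By subunit, 45 of 49 members of the 60S (median 1.49) and 31 of 32 of the 40S (median 1.34) were higher. Without embryos 1 and 4 the count was 74 and the median 1.32. The median of the members was thus 2.75 with the trend of length in place and 1.41 with it removed. The second value also depended on the measure, at 2.03 with coding length, 2.00 with merged exons and 1.50 with the longest transcript. With the trend on genes of at least 1000 counts it was 1.02.

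The order of the members changed once length was taken out. *Rps15a* and *Rps20* came first, at 4.39 (SE 0.61, edgeR adjusted p = 1.3e-04) and 3.75 (SE 0.55, edgeR adjusted p = 1.8e-04), followed by *Rplp0* at 2.91 (SE 0.36, edgeR adjusted p = 5.8e-05), *Rpl22* at 2.66 (SE 0.43, edgeR adjusted p = 3.3e-04) and *Rpsa* at 2.31 (SE 0.37, edgeR adjusted p = 3.5e-04). The values of the first 2 rest on their annotated lengths, 5130.0 and 3706 bases for coding lengths of 390 and 357. With coding length in place of transcript length, an alternative chosen after seeing the data, they were 2.42 and 2.14. With coding length, *Rplp0* was at 3.48, *Rpl22* at 1.93 and *Rpsa* at 2.46. *Rpl39*, *Rps26* and *Rpl29* gave 2.30, 2.01 and 2.07 relative to transcript length. The 5 members that did not pass relative to length were *Rps10* (-1.04), *Rpl24* (-1.0), *Rpl22l1* (0.37), *Rpl4* (0.53) and *Rpl39l* (2.06).

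Several calls relative to length depended on the length measure or on a library. *Rps10* was past the test as lower with GC content added (-1.29), with the trend fitted on genes of at least 1000 counts (-1.41) and with the members kept in the trend (-1.14), and *Rpl24* with unstranded counts (-1.48). *Rpl22l1* was past the test as higher with coding length (1.13), the longest transcript (1.50), merged exons (1.38) and GC content (1.23), and *Rpl4* with coding length (1.22) and GC content (0.63). *Rpl38*, at 0.53 (SE 0.20, edgeR adjusted p = 0.046), lost its call without adult 1 (0.49), adult 2 (0.37), or embryo 1, 4, 5 or 6 (0.51, 0.52, 0.53 and 0.50). It also lost it with the longest transcript (0.18), merged exons (0.40), GC content (0.29), the trend on genes of at least 1000 counts (0.21) and the members in the trend (0.35), so its call is weak. *Rplp2*, at 0.83, *Rpl10*, at 0.66, *Rpl41*, at 1.02, and *Rps24*, at 1.16, lost theirs without adult 1 (0.95, 0.81, 1.06 and 1.22) and without adult 2 (0.54, 0.42, 0.82 and 0.94). With the trend on genes of at least 1000 counts these 4 lost their calls too (0.49, 0.28, 0.65 and 0.81). So did *Rpl10* (0.47) and *Rpl41* (0.90) with the longest transcript, *Rplp2* (0.57) and *Rpl41* (0.79) with GC content, and *Rplp2* with the members in the trend (0.68). *Rps24* was at 3.33 with the longest transcript. Without adult 2, *Rpl7*, *Rplp1*, *Rps6* and *Rps27l* went from 1.58, 1.22, 0.93 and 1.02 to 1.52, 1.01, 0.73 and 0.85 and lost theirs, as *Rplp1* did with merged exons (0.70). All these values kept their direction.

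Relative to length, these members stayed higher with every library left out in turn: *Rps19* at 1.73 (SE 0.27, edgeR adjusted p = 3.0e-04), *Rpl10a* at 1.78 (SE 0.33, edgeR adjusted p = 8.3e-04), *Rpl11* at 1.56 (SE 0.28, edgeR adjusted p = 7.9e-04), *Rpl5* at 1.44 (SE 0.28, edgeR adjusted p = 0.0013) and *Rps4x* at 1.35 (SE 0.23, edgeR adjusted p = 5.5e-04). *Rps27a* was at 1.12 (SE 0.25, edgeR adjusted p = 0.0028) and *Rpl3* at 1.20 (SE 0.23, edgeR adjusted p = 0.0012). *Rpl13a* and *Rps14* gave 1.88 and 1.87, and *Rps27* 1.23.

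**Figure D4:**
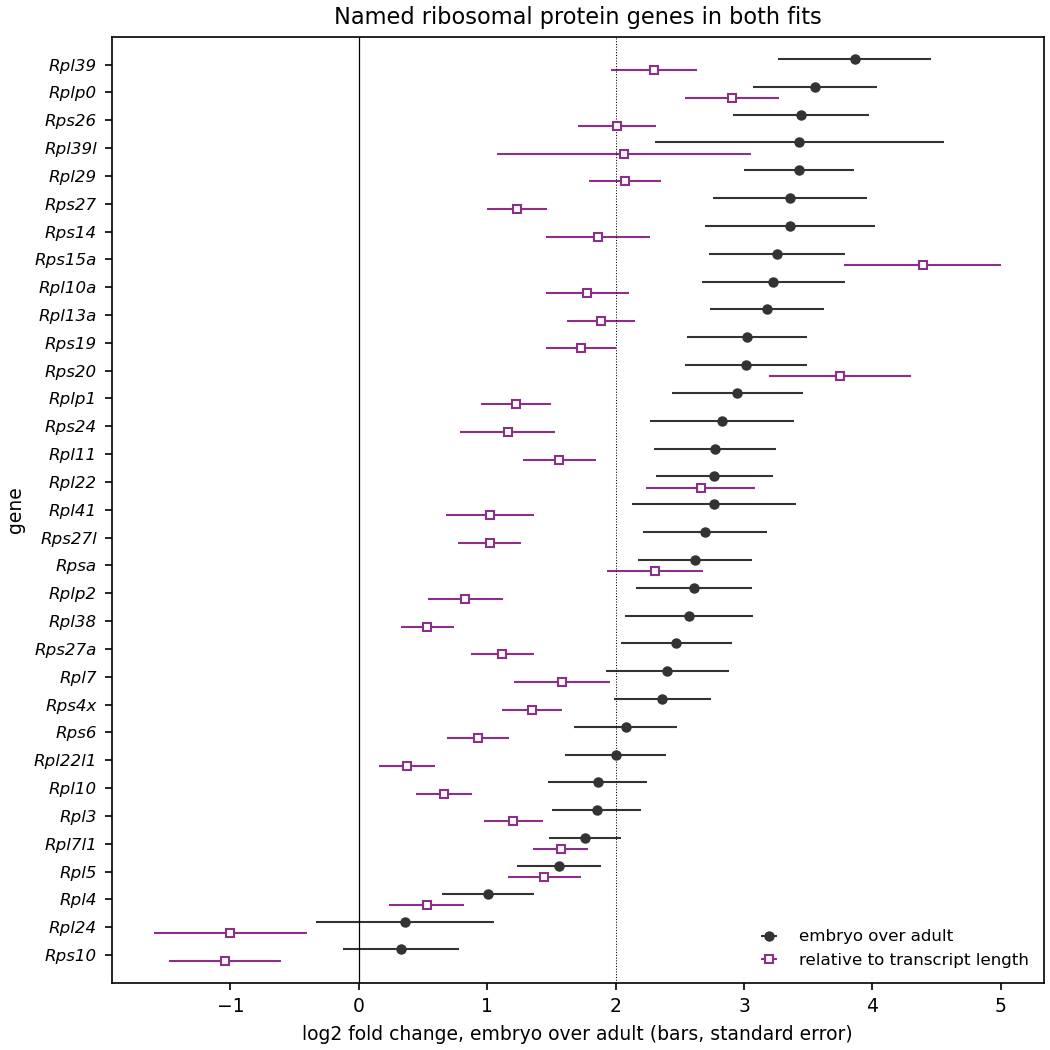
Log2 fold change, embryo over adult, of the named members (horizontal axis; genes on the vertical axis). Filled circles give the fit without and open squares the fit with the correction for transcript length; bars are standard errors, and the dotted line marks 4-fold. Squares lie left of the circles except for *Rps15a* and *Rps20*, and *Rps10* and *Rpl24* lie below 0 after the correction.

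Levels of different members can be compared only per length, here as CPM per kilobase of annotated transcript. Among the 79 tested members that averaged 100 counts or more, the embryo mean ran from 7.35 to 11168 CPM per kilobase with a median of 2666, and the adult mean from 5.87 to 1199 with a median of 374. Across the 81 tested genes, Spearman's correlation between the embryo and the adult level was 0.85, so that members high in the pouch were mostly high in the gland. The highest by the mean over libraries was *Rps27*, at 4799 to 17947 (median 7968) in the embryos against 1102 and 1071 in the adults. *Rps14* and *Rpl41*, whose protein is the shortest of the ribosome, lay at 3745 to 19028 (median 9279) in the embryos against 1092 and 1019 in the adults, and at 3094 to 15786 (median 5899) in the embryos against 1320.2 and 1079 in the adults. By their medians over the embryos *Rps14* was above *Rps27*, and in both adults *Rpl41* was. *Rps24* and *Rplp1* completed the highest 5, and in each of these every embryo was above both adults. *Rpl41* had a log2 fold change of 2.77 (SE 0.64, edgeR adjusted p = 0.0025). At the low end stood *Rpl7l1*, *Rpl13a*, *Rps10*, *Rpl24* and *Rpl39l*. Their medians over the embryos were 99.6, 241, 7.12, 1.18 and 0.847 CPM per kilobase. A read pair that aligns to several places is lost to its gene, so these levels also carry how much sequence a member shares.

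Ribosomal protein genes have many processed pseudogenes, and most members share sequence with them. The share of a member's 75-base stretches that recur in a transcript of another gene ran from 0% to 92.5% over the 81 tested members, with a median of 44.8%. The highest was *Rpl5*. *Rpl29* shared stretches with 42 pseudogenes, and *Rpl7a*, named after its value was seen, with 64, the most. In the 14 members with under 10% shared, 14 were higher in the embryo (24.0% of all genes were), with a median log2 fold change of 2.89. In the 36 with over 50% shared, 34 were higher, with a median of 2.53. Spearman's correlation of the fold change with the shared part was -0.24 across the 81 genes, which are not independent. Among members with little shared sequence were *Rpl39* (7.62%), *Rps20* (6.55%), *Rps15a* (5.90%) and *Rpl22* (1.93%), and also *Rpl4* (8.47%) and *Rpl7l1* (3.98%), which had low fold changes. The embryos had the larger part of read pairs aligned to several places, as given above, and how far those came from the members was not tested.

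Some members have a paralog that can stand in for them in the ribosome, and 6 such pairs were read. *Rpl22l1* and its partner *Rpl22* both rose, and the difference between their fold changes was not tested. *Rpl22l1* lay at 428 to 989 CPM (median 576) in the embryos against 157 and 167 in the adults, with a log2 fold change of 2.00 (SE 0.39, edgeR adjusted p = 8.1e-04). Its share of the counts of the pair was 24.8% to 28.6% in the embryos (median 26.2%), against 35.3% and 40.6% in the adults. Every embryo was below both adults, a difference in means of -11.4 points that exceeded the spread within each group, and that was -7.22 points with unstranded counts. Relative to length *Rpl22l1* and *Rpl22* were at 0.37 and 2.66, and with coding length in place of transcript length at 1.13 and 1.93. *Rps27l*, a p53 target, also had a smaller share beside *Rps27* in the embryos. *Rps27l* lay at 202 to 617 CPM (median 317) in the embryos against 67.6 and 58.4 in the adults, rose by 2.69 (SE 0.48, edgeR adjusted p = 4.5e-04) on the log2 scale, and made up 8.66% to 11.5% of the pair in the embryos (median 9.96%), against 15.1% and 13.6% in the adults. Here too every embryo was below both adults, by -4.49 points in the means. Relative to length *Rps27l* and *Rps27* were at 1.02 and 1.23, but with coding length at 1.70 and 2.30. The exact permutation test, with a two-sided p of 2 times the smaller tail, gave p = 0.0556 for both pairs (0.111 adjusted over the 4 pairs tested). This is the smallest p that this form of the test gives over the 36 arrangements of 7 and 2 libraries, so neither difference could pass 0.05 by it. The widest Wilson 95% interval of a library was 1.59 points for *Rpl22l1* and 1.09 for *Rps27l*. Partners differ in how many of their 75-base stretches recur in a transcript of another gene. The part was 56.3% for *Rpl22l1* and 1.93% for *Rpl22*, and 7.88% for *Rps27l* and 75.4% for *Rps27*. Read pairs aligned to several places are not counted, and their part in these shares was not tested.

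*Rpl7l1* showed no clear difference in its share. It lay at 141 to 229 CPM (median 195) in the embryos against 58.5 and 54.6 in the adults. On the log2 scale it rose by 1.76 (SE 0.28, edgeR adjusted p = 1.8e-04), against 2.40 for *Rpl7*. Relative to length *Rpl7l1* and *Rpl7* were at 1.57 and 1.58, but with coding length at 1.41 and 2.15. The share of *Rpl7l1* in the pair with *Rpl7* was 2.98%, 8.64%, 7.37%, 2.99%, 5.61%, 3.17% and 5.01% in embryos 1 to 7, and 6.92% and 6.73% in the adults. The low shares were those of embryos 1, 4 and 6, and the adults lay within the range of the embryos. The exact permutation p was 0.39 (0.44 adjusted). *Rpl39l*, best known from the testis, had only 1 to 26 counts per library, at 0.297 to 1.83 CPM (median 0.574) in the embryos against 0.0242 and 0.112 in the adults. Every embryo was above both adults. Its log2 fold change was 3.43 (SE 1.13, edgeR adjusted p = 0.02), and the call was lost without adult 1 (2.71, adjusted p = 0.18) and without adult 2 (4.72, adjusted p = 0.06). Its share of the pair with *Rpl39* was 0.0108% to 0.0657% in the embryos, against 0.0166% and 0.111% in the adults (exact permutation p = 0.44, adjusted 0.44), a difference not detectable at this depth. *Rpl3l* and *Rpl10l* stood at or near 0 of their pairs in all libraries.

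**Figure D5:**
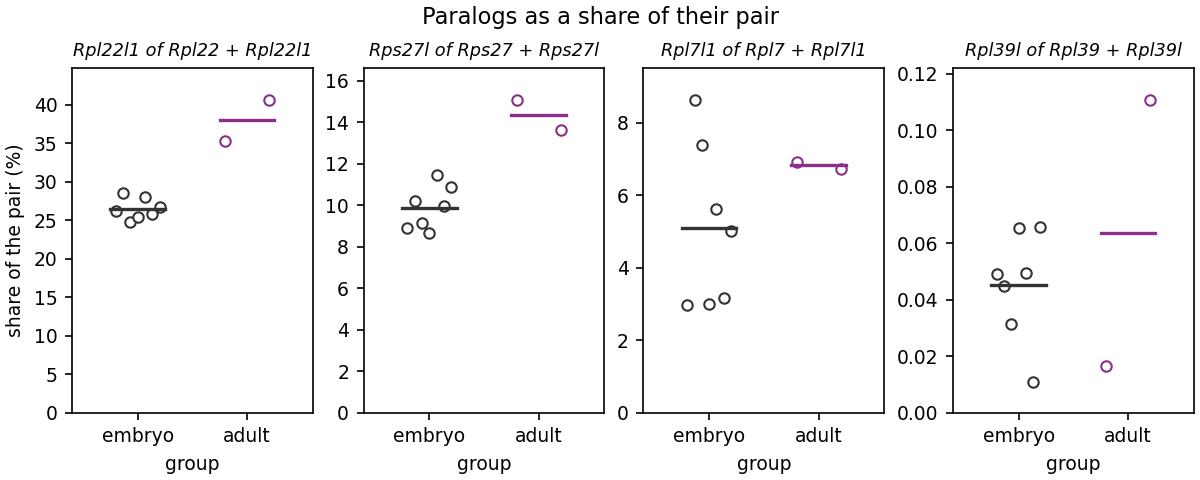
Share of a paralog in the counts of its pair (%, vertical axis, a scale of its own in each panel) for the 7 embryos and the 2 adults (horizontal axis). Open points are libraries and lines group means. The embryo points lie below both adults for *Rpl22l1* and *Rps27l*, and the groups overlap for *Rpl7l1* and *Rpl39l*.

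The start of transcription was read for the pyrimidine run for which these messenger RNAs are known. A RefSeq start window was held for 63 members by the promoter table, and for 20 there was none. A match was a C at the annotated start, or within 5 bases of it, followed on the sense strand by at least 4 more C or T. It was found in 29 of 63 members, or 46.0% (Wilson 95% interval 34.3% to 58.2%), and in 5718 of 27025 genes of the table, or 21.2% (18.3% of all promoter windows). With the C exactly at the annotated start, the counts were 13 of 63 members (20.6%) and 813 of 27025 genes (3.01%). The match is a description of annotated sequence, and no start was measured in these libraries. Members with a match had a median log2 fold change of 2.61 (n = 29), those without 2.72 (n = 32), and those with no window 2.91 (n = 20). The same 3 medians relative to length were 1.23, 1.43 and 1.57. The 5 examples that follow are each 30 bases from RefSeq on build GRCm38.p6, with the matching run in capitals, shown because the run begins at the annotated start itself. They are *Rps6* at chr4:86857348-86857377 (minus strand), *Rpl38* at chr11:114668570-114668599 (plus strand), *Rplp2* at chr7:141447641-141447670 (plus strand), *Rps27* at chr3:90213629-90213658 (minus strand) and *Rps10* at chr17:27635225-27635254 (minus strand).
Rps6: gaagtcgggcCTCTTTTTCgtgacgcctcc
Rpl38: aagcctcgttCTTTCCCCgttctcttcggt
Rplp2: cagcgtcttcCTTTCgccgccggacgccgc
Rps27: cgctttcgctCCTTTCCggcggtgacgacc
Rps10: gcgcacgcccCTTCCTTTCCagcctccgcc

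Some genes of ribosomal proteins and their copies that are not members were read beside them. *Rack1*, a scaffold on the head of the small subunit, lay at 2241 to 6213 CPM (median 4719.9) in the embryos against 799 and 536 in the adults. *Fau*, which encodes a small ribosomal protein fused to a ubiquitin-like protein, lay at 629 to 2088 CPM (median 1269.9) in the embryos against 201 and 157 in the adults. All embryos were above the adults for both genes. They rose by 2.77 (SE 0.48, edgeR adjusted p = 3.5e-04) and 2.93 (SE 0.49, edgeR adjusted p = 2.8e-04) on the log2 scale. Relative to length the values were 2.19 and 1.21, and *Fau* was no longer past the test without adult 2 (0.98). The copies *Rps27rt* and *Rps4l*, the second annotated as a transcribed processed pseudogene and so not a member, rose by 3.27 and 1.45 (edgeR adjusted p = 2.8e-04 and 0.0019). Relative to length they were at 1.24 and 0.22, and *Rps4l* did not pass except with coding length (1.75). *Rpl36al*, a copy of *Rpl36a*, differed from these, at 0.0732 to 1.48 CPM (median 0.540) in the embryos against 1.50 and 1.04 in the adults, where adult 1 was above every embryo and the groups overlapped. It did not pass, at -1.22 (SE 0.80, edgeR adjusted p = 0.22), and relative to length it was past the test as lower, at -2.46 (SE 0.75, edgeR adjusted p = 0.017), but not without adult 1 (-2.25) or adult 2 (-2.74). Without embryos 1 and 4 it passed as lower with no correction (-1.43).

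Other messenger RNAs known to begin with the pyrimidine run were mostly higher in the embryo too. Of 18, 15 were higher in the embryo and none lower (24.0% and 27.4% of all genes), with a median log2 fold change of 1.75. Relative to length 14 were higher (24.2% of all genes), with a median of 1.47 beside 1.41 for the members. *Eif3k* and *Eif3h*, subunits of initiation factor eIF3, lay at 296 to 1097 CPM (median 761) in the embryos against 114 and 95.5 in the adults, and at 506 to 1174 CPM (median 1054) in the embryos against 197 and 165 in the adults. *Btf3*, of the nascent chain complex, and *Eef1b2*, an elongation factor subunit, lay at 674 to 1426 CPM (median 782) in the embryos against 176 and 141 in the adults, and at 946 to 2296 CPM (median 1883) in the embryos against 388 and 292 in the adults. Each embryo was above both adults for these 4 genes. Their log2 fold changes were 2.78, 2.36, 2.59 and 2.40, with edgeR adjusted p-values of 4.3e-04, 3.4e-04, 1.3e-04 and 4.7e-04. Those that did not pass were *Npm1*, *Pabpc1* and *Eif4b*, named after their values were seen. The promoter table held a start window for 12 genes of this list. The run was found within 5 bases of the start in 5 of them, or 41.7% (Wilson 95% interval 19.3% to 68.0%). Among all genes of that table it was found in 21.2%.

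Ribosomes are assembled by a large set of biogenesis factors. Of 56, 20 were higher, 7 lower and 29 did not pass, with a median of 0.30. These were 35.7% higher and 12.5% lower, beside 24.0% and 27.4% of all genes. Relative to length, 29 were higher (51.8% beside 24.2% of all genes) and 2 lower (22.7% of all genes), with a median of 0.77. The difference from the ribosomal proteins was not tested. *Nhp2* and *Nop10*, which belong to the particles that place pseudouridine in ribosomal RNA, lay at 70.1 to 143 CPM (median 110.2) in the embryos against 13.6 and 9.41 in the adults, and at 119 to 336 CPM (median 192) in the embryos against 39.8 and 48.8 in the adults. *Mrto4*, of the stalk assembly, lay at 44.8 to 109.9 CPM (median 95.1) in the embryos against 20.2 and 13.9 in the adults. All embryos were above both adults for these genes, and they rose by 3.30 (SE 0.39, edgeR adjusted p = 1.6e-05), 2.18 (SE 0.40, edgeR adjusted p = 5.0e-04) and 2.36 (SE 0.39, edgeR adjusted p = 2.3e-04) on the log2 scale. *Mdn1*, a very long ATPase of the large subunit precursor (17964 bases), went the other way, at 4.47 to 9.79 CPM (median 6.86) in the embryos against 46.0 and 48.2 in the adults. Every embryo was below both adults, with a log2 fold change of -2.70 (SE 0.29, edgeR adjusted p = 7.9e-06), and relative to length of -0.19, not past the test. *Nop10* was not past the test relative to length without adult 1 (1.28 with all libraries, 1.08 without it). Relative to length, the 2 lower factors were *Gnl2* (-0.87) and *Gnl3* (-1.09), named after their values were seen.

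Of 14 genes of RNA polymerase I, which transcribes the large ribosomal RNAs, and its factors, 5 were higher, 1 lower and 8 did not pass (median 0.47), or 35.7% and 7.14% beside 24.0% and 27.4% of all genes. Relative to length 8 were higher and 1 lower (median 0.90), where 24.2% and 22.7% of all genes were. *Polr1c*, *Polr1d* and *Polr1e*, subunits of the enzyme, lay at 111 to 305 CPM (median 224) in the embryos against 39.8 and 38.2 in the adults, at 94.0 to 219 CPM (median 122) in the embryos against 36.5 and 30.8 in the adults, and at 23.6 to 45.2 CPM (median 30.9) in the embryos against 8.89 and 7.08 in the adults. The embryos were above the adults in each. They rose by 2.44 (SE 0.40, edgeR adjusted p = 2.2e-04), 2.14 (SE 0.37, edgeR adjusted p = 3.3e-04) and 1.99 (SE 0.34, edgeR adjusted p = 2.9e-04) on the log2 scale, and *Znrd1*, another subunit, by 1.99 (SE 0.34, edgeR adjusted p = 2.8e-04). Relative to length *Znrd1* was at 0.64, and not past the test without adult 1 (0.46) or adult 2 (0.69), nor with the longest transcript (0.32), merged exons (0.38) or the trend on genes of at least 1000 counts (0.26). The lower gene was *Taf1a*, at -1.34 and -1.86 relative to length, and the fifth higher *Cd3eap*, at 1.01, both named after their values were seen.

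Regulators of ribosomal protein translation and synthesis were called in both directions, as genes were in general. Of 14 genes of the mTORC1 pathway and the LARP1 family, which binds the pyrimidine run, 4 were higher, 6 lower and 4 did not pass (median -0.57), or 28.6% and 42.9% beside 24.0% and 27.4% of all genes. Relative to length 5 were higher and 2 lower (median 0.38), beside 24.2% and 22.7% of all genes. *Eif4ebp1*, an inhibitor of cap-dependent initiation, lay at 24.2 to 58.3 CPM (median 47.7) in the embryos against 4.85 and 6.46 in the adults, and *Akt1s1*, an inhibitor within mTORC1, at 91.9 to 206 CPM (median 144) in the embryos against 49.5 and 48.2 in the adults. *Deptor*, another mTOR inhibitor, lay at 1.01 to 2.82 CPM (median 1.32) in the embryos against 25.1 and 32.6 in the adults, and *Larp1b* at 1.29 to 4.16 CPM (median 1.64) in the embryos against 16.8 and 15.4 in the adults. The embryos were above both adults for the first 2 and below both for the last 2. *Eif4ebp1* rose by 2.98 (SE 0.38, edgeR adjusted p = 3.2e-05) and *Akt1s1* by 1.68 (SE 0.33, edgeR adjusted p = 8.7e-04) on the log2 scale, while *Deptor* was at -4.22 (SE 0.36, edgeR adjusted p = 1.2e-06) and *Larp1b* at -2.90 (SE 0.44, edgeR adjusted p = 1.3e-04). *Deptor* and *Larp1b* were also the lower genes relative to length, at -3.74 and -3.37. *Mtor* (-0.95) and *Larp1* (-1.32), named after their values were seen, were lower, and stood at 0.01 and 0.06 relative to length, not past the test. The other higher genes, also named after their values were seen, were *Mlst8*, a subunit of mTORC1, at 1.30, and the kinase gene *Rps6kb2*, at 0.96. *Rptor*, the scaffold of mTORC1, was 1 of the 6 lower genes, at -0.59, and was called higher relative to length, at 0.78, so its direction depends on the correction. *Rheb*, *Tsc2*, *Rps6kb1* and *Eif4ebp2* did not pass.

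Of 6 MYC family genes *Mycl* alone rose (24.0% of all genes did), at 34.0 to 79.6 CPM (median 60.4) in the embryos against 22.7 and 17.8 in the adults, with every embryo above both adults and a log2 fold change of 1.54 (SE 0.33, edgeR adjusted p = 0.0016). *Myc* lay at 7.51 to 12.9 CPM (median 8.47) in the embryos against 14.8 and 11.6 in the adults and *Mycn* at 3.07 to 14.5 CPM (median 10.3) in the embryos against 16.9 and 6.77 in the adults, with overlapping groups, and neither passed, nor did *Max*, *Mxd1* and *Mxd4*. Relative to length *Myc* was just past the test as lower, at -0.75 (SE 0.29, edgeR adjusted p = 0.048). It no longer passed without adult 1 (-0.62), adult 2 (-0.95) or any embryo other than embryo 5 (-0.67 to -0.77), nor with coding length (-0.19), the longest transcript (-0.74) or unstranded counts (-0.72), so this call is weak.

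Of 6 genes of p53 and the 5S particle, 3 were higher and 2 lower, beside 24.0% and 27.4% of all genes, and relative to length 2 higher and 1 lower, beside 24.2% and 22.7%. *Mdm4* and *Mdm2*, both p53 inhibitors, lay at 12.8 to 29.4 CPM (median 17.8) in the embryos against 79.4 and 92.0 in the adults, and at 16.3 to 33.9 CPM (median 21.3) in the embryos against 41.7 and 43.2 in the adults, with the embryos below both adults, at log2 fold changes of -2.14 (SE 0.28, edgeR adjusted p = 3.7e-05) and -0.95 (SE 0.29, edgeR adjusted p = 0.013). *Trp53*, which encodes p53, and *Gtf3a*, which binds the 5S RNA and its gene, rose by 1.24 and 1.47, and *Rpf2*, which loads the 5S particle, by 0.92. The p53 target *Cdkn1a* did not pass, at 7.90 to 17.0 CPM (median 11.4) in the embryos against 14.1 and 15.5 in the adults. *Mdm2* and *Rpf2* lost their calls without adult 1 (-1.0 and 0.86), and *Trp53*, *Mdm2*, *Gtf3a* and *Rpf2* without adult 2 (0.97, -0.94, 1.27 and 0.95). *Rpf2* was also not past the test with library size alone (0.71). Relative to length *Trp53* (0.94) and *Gtf3a* (0.77) were higher and *Mdm4* (-1.36) lower, and *Mdm2* (-0.52) and *Rpf2* (0.48) did not pass. The first 2 calls were lost without adult 2 (0.65 and 0.55) and with the trend on genes of at least 1000 counts (0.59 and 0.39), that of *Gtf3a* without adult 1 (0.92), and that of *Mdm4* with merged exons (-0.55). *Mdm2* passed as lower with the longest transcript (-0.88), with that trend (-0.88) and without embryo 7 (-0.60), and *Rpf2* as higher with GC content (1.11).

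Beside 3 other complexes of mostly short transcripts, the ribosomal proteins had the highest median. Of 77 tested mitochondrial ribosomal proteins, 72 were higher in the embryo and none lower (24.0% and 27.4% of all genes), with a median log2 fold change of 1.70. Of 85 respiratory chain subunits, 79 were higher and none lower, with a median of 1.93. Of 39 proteasome subunits, 31 were higher and 2 lower, with a median of 1.48. The 2 lower were *Psmb8* and *Psmb9*, subunits of the immunoproteasome, named after their values were seen. Relative to length, where 24.2% of all genes were higher, the counts of higher genes were 52, 49 and 28, and the medians 0.93, 0.71 and 0.95, against 76 of 81 and 1.41 for the cytosolic ribosomal proteins. Lower relative to length, as 22.7% of all genes were, were the same 2 proteasome genes and 2 respiratory chain genes, *Ndufa1* (-1.13) and *Atp5s* (-1.17), named after their values were seen. These lists differ in abundance and length, and the differences between them were not tested.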

How the data were processed

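The deposited counts are read pairs per gene and strand, which the authors made with Trimmomatic 0.39 and STAR 2.7.5b on mm10 (GRCm38), per the submitters' processing notes. The fourth column (the sense strand) was used for 55450 genes in 7 embryonic and 2 adult libraries. The other strand held 4.38% to 5.17% of the pairs. Of all read pairs, 0.854% to 10.3% were unmapped, 7.16% to 26.1% aligned to several places, 2.40% to 6.62% lay on no gene and 1.32% to 2.64% on more than 1, and these were left out of library sizes.

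From the counts, embryo was compared with adult in edgeR 4.0.16 (R 4.3.3; quasi-likelihood test, TMM scaling, stage as only term) for 19371 genes that averaged 5 counts or more, with Benjamini-Hochberg adjustment and a threshold of 0.05. SE was computed as the absolute log2 fold change over the square root of F. The fit relative to length added an offset per library, a natural spline (4 df) in log2 transcript length. It was fitted on protein-coding genes outside the list that averaged 50 counts or more. Transcript length is the median over the basic GENCODE M21 transcripts of a gene. Shares of paralogs were compared by exact permutation test. The depth per library is in the report, and 3 counts correspond to 0.0727 to 0.220 CPM. Other tools were DESeq2 1.42.0 and Python 3.11.15 with matplotlib 3.10.9, scipy 1.17.1, numpy 2.4.6 and pandas 2.3.3. The edgeR scripts were tested on simulated data.

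Members and lists were chosen with earlier results of these data known. Named genes were both genes of each paralog pair, 12 members listed for their roles, and the 5 members highest and the 5 lowest in fold change in each fit and in level per length. Of each list, up to 4 genes with the largest change among those past the test with a mean count of at least 100 were named, and the genes of lists of 6 or fewer. Some genes of these lists are not reported here. Fold changes are given for members and for other named genes past the test in either fit, and markers are described by level alone. Alternatives were DESeq2, other scalings and filters, unstranded counts, other length measures and trends, GC content, libraries left out, a replicate block, and coding length, which was chosen after seeing the data.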

Additional observations from a re-analysis of the deposited data

Results flagged for a closer look

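A single embryo stood apart from the other 6 in 8 of the 123 groups of 7 embryo values looked at, by the ratio of its distance from the nearest embryo to the whole range. The cutoff flags about 1 in 20 groups of independent, normally distributed values. The values here were not transformed, and whether that rate holds for them was not tested. Embryo 6 was high for *Rpl5*, at 1465 CPM against 790.0 to 1048 in the others, and in the share of all read pairs on ribosomal protein genes, at 15.0% against 9.29% to 11.3%. Embryo 2 was high for *Rpl3l* (0.135 CPM against 0 to 0.0495), for the endothelial gene *Pecam1* (133 CPM against 26.4 to 60.8) and for the summed macrophage markers (243 CPM against 93.8 to 158). The *Rpl3l* value is only 4 counts. It lies under the floors of 3 counts in embryos 1 and 4, 0.220 and 0.212 CPM, and cannot be told from their zeros. Embryo 4 was high for *Rpl36al* (1.48 CPM against 0.0732 to 0.580), embryo 7 for *Deptor* (2.82 CPM against 1.01 to 1.79), and embryo 1 for *Gh* (1.90 CPM against 0.0362 to 0.365). The differences between these embryos were not tested.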

How the results depend on the processing

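Most values kept their direction and size, and the cause of those that moved was not tested. The 79 higher members became 78 with library size alone (median 2.46, against -0.26 over all genes), and 77 to 79 with 1 library left out (74 past 4-fold became 69 to 74, the median 2.59 to 2.84). Tested against a fold of 4, 23 members passed. Relative to length, the 76 higher members became 45 without adult 2 (45 to 76 over all libraries left out), and the 11 past 4-fold 9 to 13. Those 11 became 41 with coding length, 22 with the longest transcript, 40 with merged exons and 4 with the trend on genes of at least 1000 counts, and the median of 1.41 became 2.03, 2.00 with merged exons and 1.02 with that trend (1.23 to 1.47 with libraries left out). With that trend, 3264 of all genes were higher and 5866 lower, against 4679 and 4401. The embryo mean share of 15.5% (14.7% to 16.2%) became 11.2% over all read pairs, and the adult mean of 2.95% (2.66% to 3.23%) 2.47%. With the C exactly at the start, 46.0% of members with a pyrimidine run became 20.6%. The signs turned for the share of *Rpl39l*, embryo minus adult (-0.0184 points, 0.0287 without adult 2; -0.0655 to 0.0287), for *Rpl24* (0.36, -0.0886 with unstranded counts) and for *Rps4l* relative to length (0.22, -0.158 with the trend on genes of at least 1000 counts). With libraries left out, the differences for *Rpl22l1*, *Rps27l* and *Rpl7l1* were -14.1 to -8.74, -5.21 to -3.76 and -2.30 to -1.36 points, and with unstranded counts that of *Rpl22l1* was -7.22 points against -11.4. With a replicate block, 77 members were higher (median 2.68) and 74 relative to length (median 1.39). Embryos 3 to 7 share no number with an adult, so the stage effect in that fit rests on embryos 1 and 2 and adults 1 and 2. With the block *Rpl4* (0.57), *Rpl39l* (3.66) and *Rpf2* (0.53) no longer passed, nor, relative to length, *Rpl38* (0.48), *Znrd1* (0.70), *Rpl36al* (-3.51) and *Myc* (-0.76). The numbers are shared by different animals, and the correlations of paired deviations were 0.033 and 0.0003.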
